A study of Homo sapiens with 16 samples.

Results

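Untreated MDA-MB-231 cells without TXNIP (TKO cells) were compared with the unedited cells they were made from (parental cells). The comparison used the 2 libraries labelled TKO and the 2 labelled as parental that carried no siRNA in their labels, which are 4 of the 16 RNA-seq libraries of the series. MDA-MB-231 is an established triple-negative breast cancer line with a mesenchymal appearance and a strong invasive habit. The TKO cells carried a TXNIP knockout made with a CRISPR/Cas9 plasmid, the parental cells were unedited, and both were grown in the same serum-containing medium with no other agent. The study's methods state that knockout clones were grown from single cells, and whether both TKO libraries came from 1 clone is not given in the sources used here. The difference made by the knockout therefore cannot be told apart from a difference between a clone and the bulk line. Another 6 libraries, 3 of TKO cells and 3 of parental cells, came from cells that had received a non-targeting siRNA (siNT). They share no library with the untreated comparison, and their values stand beside the genes described.

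TXNIP is an arrestin-like protein that binds thioredoxin and limits glucose uptake by promoting the internalization of glucose transporters. Its own transcription is driven by the glucose-sensing factors MondoA (MLXIP) and MLX, so its mRNA follows glucose supply. Myc, which binds DNA together with Max at E-boxes such as CACGTG, drives glucose use and biosynthesis and competes with MondoA at the TXNIP promoter.

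The 4 libraries held 18953668 and 19258213 gene-assigned reads in parental cells and 29925768 and 28830390 in TKO cells. Levels are given as CPM, the gene's reads per 1000000 of those totals after scaling, and a count of 3 in a library stood for 0.156, 0.153, 0.102 and 0.105 CPM in that order. Markers of mesenchymal MDA-MB-231 cells summed to between 9245 and 9982 CPM in every library and luminal markers to between 729 and 799 CPM. Markers of other cell types were low, with sums of 42.9 and 40.3 CPM in parental and 22.1 and 16.3 CPM in TKO cells for fibroblasts, 5.21 and 4.55 and 1.53 and 1.47 CPM for immune cells and at most 4.11 CPM for endothelial cells. The 2 TKO libraries differed from each other far more than the 2 parental libraries did. Averaging above 1 CPM were 12818 genes, and the TKO libraries were over 1 log2 unit apart at 513 of them and the parental libraries at 2. A chi-square statistic of the counts came to 38.8 per gene for the TKO pair and 2.02 for the parental pair. For this reason values are given for each TKO library.

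TXNIP mRNA stood at 289.6 and 290.4 CPM in the parental libraries, and at 12.6 CPM in TKO replicate 1 and 46.6 CPM in TKO replicate 2. The groups did not overlap, but replicate 2 kept several times the level of replicate 1. The fitted log2 fold change of -3.29 (SE 0.65) carried an adjusted p of 0.0587 in edgeR (quasi-likelihood, adjusted by Benjamini-Hochberg), which narrowly missed the limit of 0.05. DESeq2's Wald test gave an adjusted p of 0.000946 on the same counts. In siNT-treated cells TXNIP measured 306 ± 9.79 CPM (SD, n = 3) in parental cells and 7.14 ± 0.739 CPM (SD, n = 3) in TKO cells, so the 3 siNT-treated TKO libraries lay below both untreated ones on this scale. An edited gene can still be transcribed, and these counts do not show whether the mRNA was intact.

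MYC mRNA was 97.4 and 98.3 CPM in parental cells and 115 and 89.8 CPM in TKO cells. One TKO library lay above and the other below both parental libraries, and the log2 fold change was 0.06, adjusted p = 0.802 (SE 0.13). Without TKO replicate 1 the value turned to -0.14 with an adjusted p of 0.0267, and without replicate 2 it was 0.22 with an adjusted p of 0.00584. Among 9 tested genes of the Myc network, MAX, the partner Myc needs to bind DNA, rose from 48.1 and 48.4 to 69.9 and 62.2 CPM (log2 fold change 0.45, SE 0.08, adjusted p = 0.0366). MNT, which competes with Myc for Max, fell from 30.3 and 31.03 to 22.6 and 22.9 CPM (log2 fold change -0.43, SE 0.08, adjusted p = 0.0399), but with an offset for the median log2 difference of its 20 Mb chromosome window it stood at -0.10 (adjusted p = 0.528). The change in MAX had the same sign in siNT-treated cells at 0.41, whereas MNT was higher there by 0.50.

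Around TXNIP itself, 4 of 14 tested members of the thioredoxin, arrestin and glucose-sensing list were called (28.6%, beside 9.61% of all genes tested). TXNRD1, the cytosolic thioredoxin reductase, rose from 875 and 871 to 1317 and 1285 CPM (log2 fold change 0.58, SE 0.06, adjusted p = 0.0106). TXN, thioredoxin itself, measured 229 and 223 CPM in parental cells and 272 and 283 CPM in TKO cells, a small rise that passed the test (0.29, adjusted p = 0.0450). SLC2A1, the basal glucose transporter GLUT1, went the other way, from 1020.5 and 1015 to 717 and 739 CPM (log2 fold change -0.48, SE 0.06, adjusted p = 0.0141). The arrestin ARRDC2 fell from 17.7 and 17.6 to 11.1 and 11.1 CPM (-0.67, adjusted p = 0.0248). ARRDC2 was again lower in siNT-treated cells, SLC2A1 was not called there, and 1 of the 2 rises recurred. ARRDC4, the closest relative of TXNIP and like it a MondoA target, showed the split between the knockout libraries: 6.57 and 6.54 CPM in parental cells, 6.49 in TKO replicate 1 and 13.2 in TKO replicate 2 (0.58, adjusted p = 0.399).

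Across all genes, 1085 of 19965 tested were higher and 834 lower in TKO cells at an adjusted p of at most 0.05, which is 9.61% of those tested, 5.43% higher and 4.18% lower. Here and throughout, "rose", "fell", "higher" or "lower" as a call refers to that test. The lower genes moved further: 413 fell by at least 1 log2 unit and 206 rose by as much. Since the test divides each difference by the spread between replicates, a call demands that the 2 TKO libraries agree, and the called genes show it. Their median log2 difference from the parental mean was 0.58 in TKO replicate 1 and 0.60 in replicate 2 for the higher genes, and -0.89 and -0.88 for the lower genes. Above 1 CPM, 451 genes lay more than 1 log2 unit from the parental mean in the same direction in both TKO libraries, while 273 did so in replicate 1 alone, 398 in replicate 2 alone and 20 in opposite directions. The calls leaned on both parental libraries: without either of them edgeR called 0 genes (2166 and 2140 at an unadjusted p under 0.05, with replicate 1 or 2 left out), and without TKO replicate 1 or 2 the counts were 7002 and 6797.

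**Figure D1:**
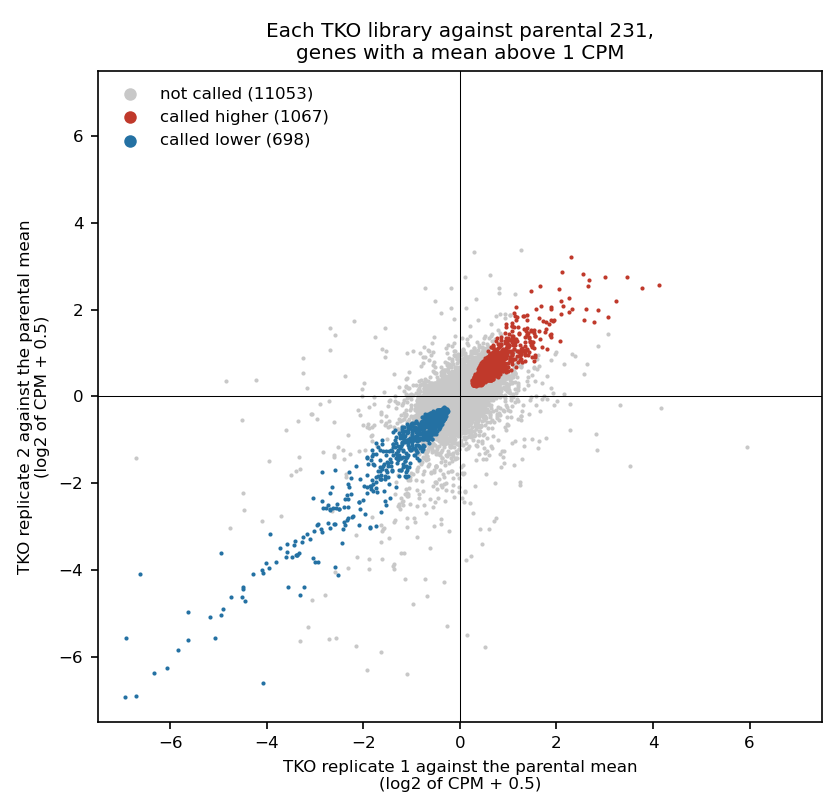
Each point is 1 of 12818 genes with a mean above 1 CPM, placed by its log2 difference from the parental mean in TKO replicate 1 (x axis) and replicate 2 (y axis), both computed on CPM + 0.5. Genes called higher (1067) and lower (698) lie along the diagonal, and uncalled genes far off it, down to -6 on 1 axis alone, are those on which the 2 TKO libraries disagreed.

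The largest rises were in genes that were low in parental cells. RNF128, an E3 ubiquitin ligase known from T cell anergy, went from 0.104 and 0.204 CPM to 8.42 and 3.23 CPM (log2 fold change 5.19, SE 0.73, adjusted p = 0.0237). TNS1, tensin, which links integrins to actin, went from 1.30 and 1.94 to 36.5 and 12.1 CPM (log2 fold change 3.90, SE 0.67, adjusted p = 0.0386). Both were higher in TKO replicate 1 than in replicate 2, and both TKO libraries lay above both parental ones. Other rises had smaller standard errors. G0S2, an inhibitor of the triglyceride lipase ATGL, rose from 17.5 and 17.9 to 199 and 122 CPM (log2 fold change 3.18, SE 0.27, adjusted p = 0.0108). SERPINA1, alpha-1-antitrypsin, rose from 3.44 and 2.56 to 27.6 and 23.1 CPM (log2 fold change 3.08, SE 0.19, adjusted p = 0.00439). AKR1C3, an aldo-keto reductase that acts on steroids and prostaglandins, rose from 12.4 and 11.7 to 79.8 and 80.2 CPM (log2 fold change 2.73, SE 0.08, adjusted p = 0.00111) and had the smallest standard error of the 15 largest rises. Its sequence is close to that of AKR1C1 and AKR1C2, so some of its reads may be shared with them.

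The remaining rises among the 15 largest were in RADX, KCNJ15, PPP4R4, CPM (the carboxypeptidase M gene), MAP2, ST8SIA5, APCDD1L-DT, ADAMTS17, CACNA2D1 and LINC01411, with log2 fold changes between 2.74 for LINC01411 and 3.69 for RADX. MAP2, a microtubule-associated protein of neurons, measured 1.09 and 0.971 CPM in parental cells and 6.11 and 10.7 CPM in TKO cells. The calcium channel subunit CACNA2D1 measured 2.50 and 1.89 CPM in parental cells and 16.4 and 15.2 CPM in TKO cells, with nearly equal TKO libraries. In siNT-treated cells 11 of the 15 were again higher. RNF128 and CACNA2D1 were lower there, by -0.38 and -0.50, and G0S2 and ST8SIA5 were not called, at -0.04 and 0.42.

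The largest falls ended at or near 0 reads in TKO cells. DAPK1, a death-associated protein kinase, stood at 61.6 and 59.8 CPM in parental cells and had no read in either TKO library, so it was at least 586-fold lower when 3 counts per library are taken as the floor. CPVL, a carboxypeptidase, stood at 24.1 and 24.3 CPM and was at least 234-fold lower. DAAM2, a formin-family regulator of Wnt signaling and actin, stood at 13.8 and 15.1 CPM and was at least 139-fold lower. ATP10A, a phospholipid flippase, went from 58.3 and 60.2 CPM to 0.0679 and 0 CPM, the first of which is 2 reads. PDE1C, a calmodulin-dependent phosphodiesterase, went from 38.9 and 36.3 CPM to 0.0679 and 0 CPM. PCSK6, DZIP1, CYRIA, TRIML2, SDR16C5, LINC00261, LINC01929, RASEF, OLR1 and F13A1 completed the 15, each with parental libraries between 3.75 and 3.02 CPM for OLR1 and 17.98 and 17.3 CPM for LINC00261, and at most 1 read in either TKO library.

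**Figure D2:**
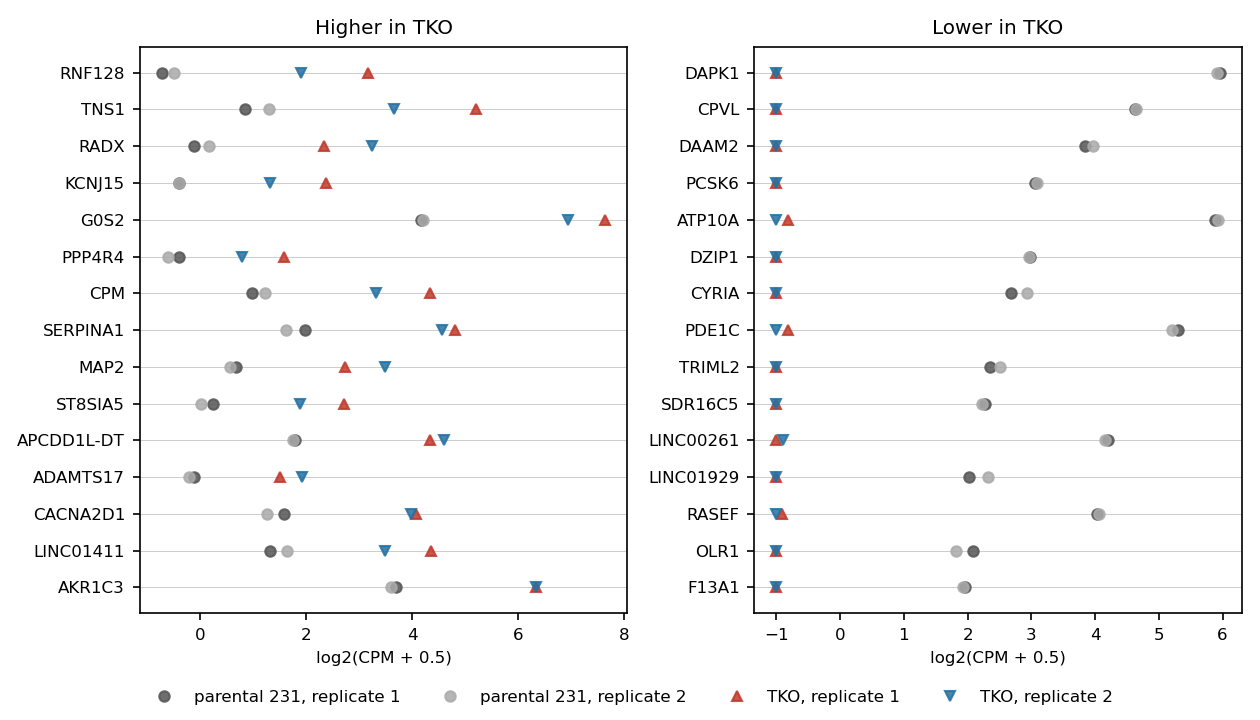
The 15 largest called rises and the 15 largest called falls, with 1 point per library on log2(CPM + 0.5). The genes were chosen from those whose groups did not overlap, which held for 57.7% of all genes tested, so no row shows an overlap. Most of the genes that fell sit at -1, which is 0 reads, in both TKO libraries.

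In siNT-treated cells 10 of these 15 falls came out lower again, CYRIA, RASEF and F13A1 were higher by 0.69, 1.93 and 3.52, PCSK6 was not called at 0.70, and CPVL was lower by a modest -0.39. CPVL therefore stood at 0 and 0 CPM in the untreated TKO libraries and at 29.8 ± 0.722 CPM (SD, n = 3) in the siNT-treated ones, beside 39.2 ± 2.94 CPM in siNT-treated parental cells.

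The promoters of 5 of these genes are printed to show the windows in which motifs were counted. Each is the 300 bases from 250 before to 50 after the start of the gene, from RefSeq on GRCh38.p14, written 5′ to 3′ on the strand of the gene. Capitals mark CG dinucleotides in the first 4 and the E-box CACGTG in SLC20A1, a phosphate transporter that rose from 164 and 169.8 to 379 and 345 CPM (log2 fold change 1.12, SE 0.07, adjusted p = 0.00457; 0.60, adjusted p = 0.00538, with an offset for its chromosome window). The windows are chr9:87497617-87497916 (plus strand) for DAPK1, chr15:25863278-25863577 (minus) for ATP10A, chr14:94390586-94390885 (minus) for SERPINA1, chr10:5048531-5048830 (plus) for AKR1C3 and chr2:112645689-112645988 (plus) for SLC20A1.
DAPK1: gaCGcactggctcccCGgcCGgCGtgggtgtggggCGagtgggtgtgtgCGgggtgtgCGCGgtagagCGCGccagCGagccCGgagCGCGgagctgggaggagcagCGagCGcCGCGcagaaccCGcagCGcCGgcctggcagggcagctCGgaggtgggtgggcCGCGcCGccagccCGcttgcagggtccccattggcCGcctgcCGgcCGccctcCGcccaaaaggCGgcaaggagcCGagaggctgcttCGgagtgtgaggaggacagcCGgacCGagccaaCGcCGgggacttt
ATP10A: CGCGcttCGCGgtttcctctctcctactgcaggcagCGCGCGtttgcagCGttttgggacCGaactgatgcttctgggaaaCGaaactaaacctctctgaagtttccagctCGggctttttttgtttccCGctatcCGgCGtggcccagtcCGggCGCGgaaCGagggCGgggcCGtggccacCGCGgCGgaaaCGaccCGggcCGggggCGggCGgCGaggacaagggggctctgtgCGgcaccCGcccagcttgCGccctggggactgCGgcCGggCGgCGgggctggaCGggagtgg
SERPINA1: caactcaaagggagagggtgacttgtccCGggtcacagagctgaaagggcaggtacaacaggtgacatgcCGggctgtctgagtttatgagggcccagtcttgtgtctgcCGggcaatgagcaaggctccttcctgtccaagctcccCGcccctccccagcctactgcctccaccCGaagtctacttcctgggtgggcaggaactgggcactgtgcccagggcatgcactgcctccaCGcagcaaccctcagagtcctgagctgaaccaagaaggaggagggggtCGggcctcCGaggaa
AKR1C3: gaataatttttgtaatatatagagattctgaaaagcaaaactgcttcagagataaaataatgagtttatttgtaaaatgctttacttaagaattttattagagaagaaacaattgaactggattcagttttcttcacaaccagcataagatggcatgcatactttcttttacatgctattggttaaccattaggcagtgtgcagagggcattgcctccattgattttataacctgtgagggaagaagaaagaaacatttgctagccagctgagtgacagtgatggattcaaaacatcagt
SLC20A1: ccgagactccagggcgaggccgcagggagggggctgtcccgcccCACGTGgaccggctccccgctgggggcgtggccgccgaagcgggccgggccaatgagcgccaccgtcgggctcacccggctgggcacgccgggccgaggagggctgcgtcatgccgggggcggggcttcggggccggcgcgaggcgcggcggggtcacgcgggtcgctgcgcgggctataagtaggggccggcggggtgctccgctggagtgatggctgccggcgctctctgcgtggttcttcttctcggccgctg
The silenced DAPK1 and ATP10A each had 37 CG dinucleotides in the window, whereas the induced SERPINA1 had 8 and AKR1C3 had 0. The contrast did not hold over other genes. Among falls, INHBB had 58 and PDE1C, SOX4 and KISS1 had 9, 8 and 9. Among rises, SLC20A1 had 42, TXNRD1 27 and G0S2 24. Nor did the contrast extend to the groups. The median ratio of observed to expected CG was 0.86 in 869 promoters of genes called higher, 0.81 in 599 of genes called lower and 0.83 in 11008 promoters of tested protein-coding genes. CACGTG, a palindrome and thus the same on both strands, lay in 9.21% of the promoters of higher genes (95% exact binomial interval 7.37 to 11.3%), in 9.52% of lower genes (7.29 to 12.2%) and in 9.98% of all tested genes. A match in this window is a description of the sequence and not of binding.

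In the NRF2 response, which protects cells from oxidants and electrophiles, 12 of 30 tested members were higher and 0 lower. That is 40% called, beside 9.61% of all genes tested. In the negative direction 1 had an unadjusted p under 0.05 in edgeR and DESeq2 called 0. The median log2 fold change of the list was 0.42, beside 0.00 over all genes, and the list's medians were 0.34 in TKO replicate 1 and 0.43 in replicate 2. The regulator NRF2 itself (NFE2L2) rose from 149 and 153 to 197 and 203 CPM (log2 fold change 0.41, SE 0.06, adjusted p = 0.0195), but stood at -0.04 (adjusted p = 0.749) with an offset for its window on chromosome 2, and its inhibitor KEAP1 also rose, from 76.9 and 76.8 to 103 and 107 CPM (log2 fold change 0.45, SE 0.06, adjusted p = 0.0181). Of the aldo-keto reductases, 2 of 6 passed: AKR1C3, given above, and AKR1B1, which measured 122 and 124 CPM in parental cells and 217 and 222 CPM in TKO cells (log2 fold change 0.83, SE 0.06, adjusted p = 0.00510). Both enzymes had TKO libraries within a few percent of each other.

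Among glutathione and thioredoxin genes 2 of 6 rose, and among quinone, haem and iron genes 3 of 4. The NADPH genes did not share in this, with 0 of 5 called, 0 at an unadjusted p under 0.05 in edgeR and a median of 0.06. SLC7A11, the cystine importer that feeds glutathione synthesis, rose from 96.7 and 99.3 to 207 and 249 CPM (log2 fold change 1.22, SE 0.10, adjusted p = 0.00753; 0.67, adjusted p = 0.00798, with an offset for its window). NQO1, a quinone reductase and a textbook NRF2 target, measured 143 and 147 CPM in parental cells against 261 CPM in TKO replicate 1 and 375 CPM in replicate 2 (log2 fold change 1.13, SE 0.19, adjusted p = 0.0353). FTL and FTH1, the ferritin chains that store iron, rose by 0.73 (adjusted p = 0.00735) and 0.41 (adjusted p = 0.0184) on the log2 scale. EPHX1, an epoxide hydrolase, ABCC3, an exporter of conjugates, and UGDH, which makes glucuronic acid donors, completed the called members with log2 fold changes of 1.38, 0.76 and 0.43 (adjusted p = 0.0270, 0.0110 and 0.0258), and UGDH stood at 0.03 (adjusted p = 0.807) with an offset for its window on chromosome 4. With window offsets 10 of the 12 rises of the list were still called. HMOX1, haem oxygenase, stood at 10.4 and 10.2 CPM in parental cells and 10.4 and 8.67 CPM in TKO cells and did not pass (-0.11, adjusted p = 0.724). In siNT-treated cells 20 of the listed genes were higher and 3 lower, with a median of 0.46, and 9 of the 12 rises recurred. KEAP1 was lower there by -0.39. Within the untreated libraries the rises numbered 20 without TKO replicate 1, 17 without replicate 2 and 0 without either parental library.

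Nuclear genes for oxidative phosphorylation, the respiratory chain and ATP synthase of mitochondria, gave 29 calls among 79 members. The share called was 36.7%, beside 9.61% of all genes tested, and every call was a rise. The share was highest in complex V, ATP synthase, with 11 of 18, followed by 5 of 11 in complex IV, 3 of 9 in complex III, 10 of 37 in complex I and 0 of 4 in complex II, where 1 had an unadjusted p under 0.05 in edgeR and DESeq2 called 0. Of the complex V calls 4 lay in shifted chromosome windows and of those in complex IV 0, and with window offsets 21 of the 29 rises were still called among 26 in all. The rises were modest: the list's median log2 fold change was 0.29, with 0.28 in TKO replicate 1 and 0.25 in replicate 2, and 67 of the 79 members were positive. Without TKO replicate 1 or 2 the rises numbered 44 and 55, and without either parental library 0. ATP5ME, a small membrane subunit of ATP synthase, had the largest, from 9.48 and 10.7 to 34.3 and 35.03 CPM (log2 fold change 1.78, SE 0.11, adjusted p = 0.00403). NDUFB3 of complex I followed, from 15.2 and 15.5 to 37.1 and 35.7 CPM (log2 fold change 1.24, SE 0.09, adjusted p = 0.00510). UQCRB of complex III went from 51.7 and 46.8 to 120.1 and 86.4 CPM (log2 fold change 1.07, SE 0.18, adjusted p = 0.0356), higher in replicate 1 than in replicate 2. ATP5F1A, the catalytic-core alpha subunit, went from 354 and 349.6 to 614 and 617 CPM (log2 fold change 0.81, SE 0.06, adjusted p = 0.00510; 0.22, adjusted p = 0.0661, with an offset for its window on chromosome 18). NDUFC1, ATP5MC3, NDUFB2 and NDUFS6 rose by 0.96, 0.91, 0.82 and 0.81 on the log2 scale, of which NDUFC1 stood at 0.41 (adjusted p = 0.0643) and ATP5MC3 at 0.46 (adjusted p = 0.0151) with an offset for their windows on chromosomes 4 and 2.

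Many of these genes are short, and gene length moved with the result. Length here is the one given for each gene with the counts. Over the genes with more than 1 CPM, log2 fold changes had a median of 0.28 for the 58 with lengths up to 500 bases, 0.17 for the 245 up to 1000 bases and between -0.01 and 0.06 in the classes above that. The median length was 2308 bases for the oxidative phosphorylation genes and 5197 bases for all. Within each of the 6 length classes the respiratory genes had the higher median, from 0.19 to 0.69, but the shortest class held only 2 of them. An offset for length, added after the data were seen, left 24 of the 29 rises with a median of 0.25. Whether length accounted for the rises was not tested. The same list did not rise in siNT-treated cells, where 0 genes were higher and 23 lower at a median of -0.20. The 4 genes NDUFB7, ATP5IF1, COX5B and NDUFS5 were called higher in untreated cells and lower there. The siNT-treated libraries were read as pairs and the untreated ones as single reads, and the siNT-treated parental libraries were counted against a later annotation release, so siRNA exposure, sequencing and counting cannot be told apart between the 2 experiments.

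**Figure D3:**
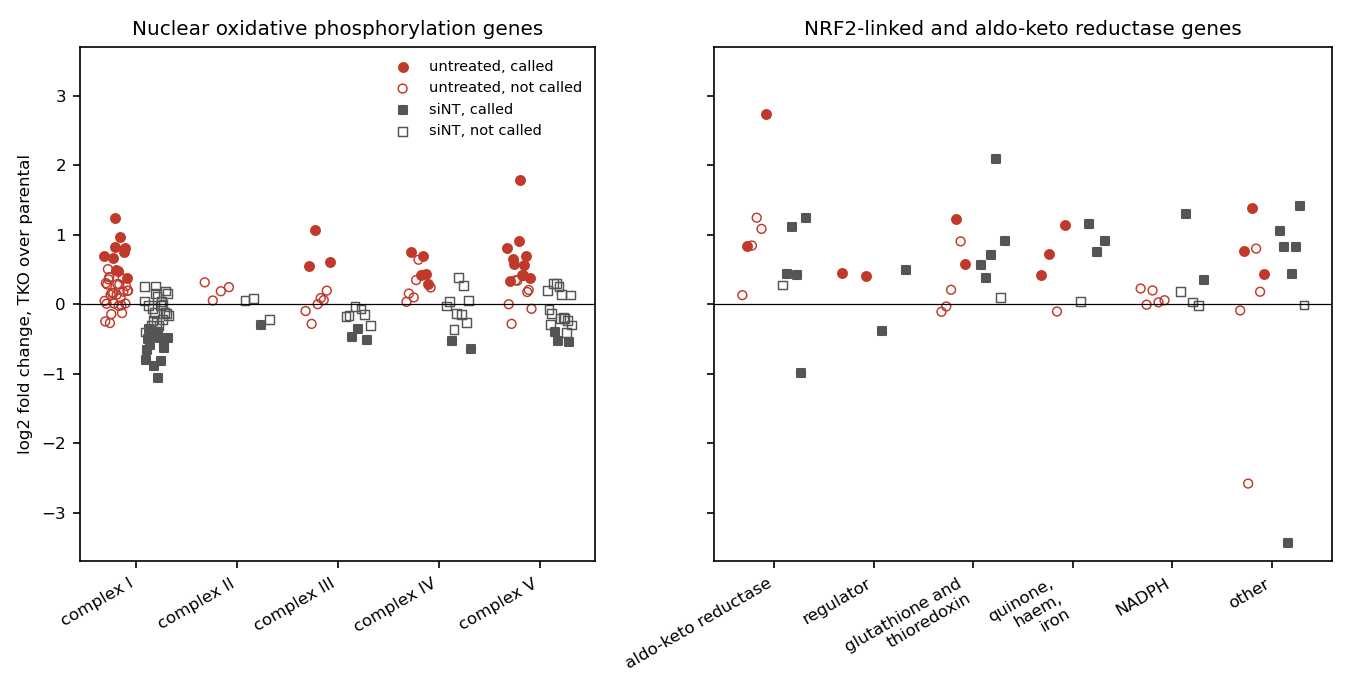
Log2 fold changes of TKO cells over parental cells for 79 nuclear oxidative phosphorylation genes and 30 NRF2-linked and aldo-keto reductase genes, grouped by role, in untreated (circles) and siNT-treated cells (squares); filled symbols passed the test. Filled circles lie above 0 in both panels, while filled squares lie below 0 for oxidative phosphorylation and mostly above 0 for NRF2-linked genes.

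The genes on the mitochondrial chromosome itself gave no common direction, with 3 higher and 1 lower of 15 (26.7%, beside 9.61% of all genes tested). MT-ATP8, a subunit of ATP synthase, rose from 85.8 and 98.1 to 465 and 376 CPM (log2 fold change 2.19, SE 0.13, adjusted p = 0.00488). MT-ND6, the one mRNA of the light strand, rose from 21.99 and 23.2 to 84.5 and 58.9 CPM (log2 fold change 1.66, SE 0.19, adjusted p = 0.0164), and MT-ND3 rose by 0.73 (adjusted p = 0.0110). MT-RNR2, the large ribosomal RNA, fell by -0.57 (adjusted p = 0.0349). MT-ATP8 overlaps MT-ATP6 on the same strand and mitochondrial genes have nuclear copies, so these counts are uncertain.

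Other parts of energy metabolism moved little or downward. None of the 23 citric acid cycle genes was called by edgeR, with 3 positive and 2 negative at an unadjusted p under 0.05, and DESeq2 called 0 in either direction. Among 25 glycolysis genes 0 rose and 3 fell, or 12% called, beside 9.61% of all genes tested. The falls were SLC2A1, described above, ENO2, an enolase, from 119 and 121 to 83.9 and 84.4 CPM (-0.51, adjusted p = 0.0126), and PFKP, the platelet-type phosphofructokinase, from 426 and 428 to 325 and 307 CPM (-0.43, adjusted p = 0.0192). Of these 3, 0 were called in siNT-treated cells. Fatty acid oxidation gave 1 rise and 2 falls among 21 genes, or 14.3% called. HADH, which oxidizes the hydroxyacyl intermediate, was 0.51 (adjusted p = 0.0224), but it lies on chromosome 4, where whole windows were shifted, and became -0.03 with an offset for its window. ETFB, a subunit of the electron-transferring flavoprotein, fell from 11.7 and 13.3 to 6.69 and 6.25 CPM (-0.95, adjusted p = 0.0224), and ECI1, an enoyl-CoA isomerase, fell by -0.52 (adjusted p = 0.0435).

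The lipid droplet and cholesterol lists both leaned downward, with median log2 fold changes of -0.36 and -0.29. Beside the rise of G0S2, its target lipase PNPLA2 (ATGL) fell from 120.4 and 117 to 70.4 and 53.6 CPM (log2 fold change -0.94, SE 0.14, adjusted p = 0.0248). DGAT2, which makes triglycerides, fell from 16.7 and 15.6 to 5.30 and 2.42 CPM (log2 fold change -2.06, SE 0.39, adjusted p = 0.0467). Those were the called members among 12 lipid droplet genes, or 25%, beside 9.61% of all genes tested. Of 26 cholesterol genes 5 fell and 0 rose, or 19.2% called. In the upward direction 3 had an unadjusted p under 0.05 in edgeR and DESeq2 called 1. Of the falls, 4 were among the 6 genes of uptake and control. SREBF1, the sterol-responsive factor that also drives fatty acid synthesis, fell from 152 and 148 to 48.2 and 42.5 CPM (log2 fold change -1.72, SE 0.08, adjusted p = 0.00297). Its relative SREBF2 fell from 97.8 and 94.4 to 72.1 and 71.5 CPM (-0.42, adjusted p = 0.0210). INSIG1, which holds SREBPs in the endoplasmic reticulum, fell from 84.3 and 82.4 to 35.97 and 44.3 CPM (-1.05, adjusted p = 0.0117). In siNT-treated cells SREBF1 was again lower, by -0.30, and INSIG1 was higher by 0.64.

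**Figure D4:**
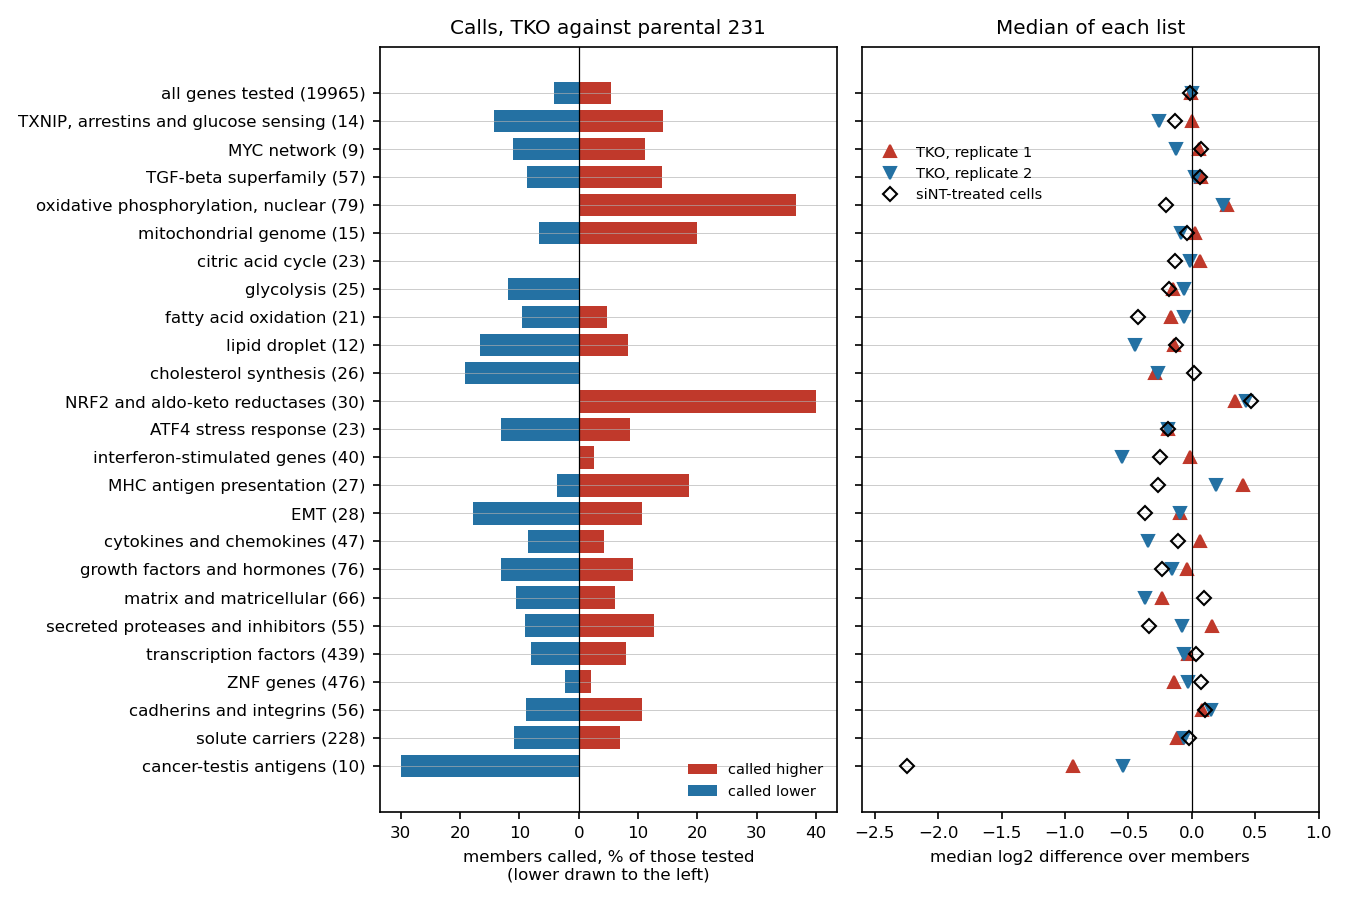
For each gene list, with the number of tested members in brackets, the left panel gives the percentage of members called higher (red) and lower (blue) and the right panel the median log2 difference in each TKO library (on log2 of CPM + 0.5) and in siNT-treated cells (fitted log2 fold changes). Oxidative phosphorylation and NRF2 show calls in 1 direction with both TKO libraries to the right of 0, and the interferon-stimulated genes show the 2 TKO libraries apart.

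In the TGF-beta superfamily 8 of 57 tested members were higher and 5 lower, or 22.8% called, beside 9.61% of all genes tested. Of 15 ligands 1 rose and 3 fell, of 4 secreted inhibitors 2 fell, and of 12 receptors, 6 SMADs and 8 intracellular inhibitors 2 each rose. INHBB, the beta B subunit of activin and inhibin, all but vanished, from 68.8 and 71.6 to 0.374 and 0.351 CPM (log2 fold change -7.58, SE 0.12, adjusted p = 0.000232). FST, follistatin, and FSTL3, which both bind and block activins, fell from 166 and 156 to 31.2 and 32.9 CPM (log2 fold change -2.33, SE 0.07, adjusted p = 0.00112) and from 38.5 and 39.2 to 22.04 and 23.6 CPM (-0.77, adjusted p = 0.0123). GDF15, a stress-induced ligand, was already low at 0.990 and 1.43 CPM and fell to 0.204 and 0.0702 CPM (-3.09, adjusted p = 0.0331). BMP4 went the other way, from 209 and 196 to 324 and 388 CPM (0.82, adjusted p = 0.0153), while BMP8B fell from 6.88 and 5.93 to 2.58 and 2.98 CPM (-1.20, adjusted p = 0.0278).

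Inside the cell the called members of this pathway all rose. BMPR2, the type II BMP receptor, went from 149 and 134 to 254 and 289 CPM (log2 fold change 0.94, SE 0.10, adjusted p = 0.0106), and ACVR1, a type I receptor, rose by 0.46 (adjusted p = 0.0395; 0.06, adjusted p = 0.714, with an offset for its window on chromosome 2). SMAD2 and the shared SMAD4 rose by 0.63 and 0.62 (adjusted p = 0.0106 and 0.0131), but both lie in a window of chromosome 18 that was shifted upward as a whole, and with an offset for the window they stood at 0.05 and 0.04 (adjusted p = 0.671 and 0.803). SMAD7, the inhibitor that the pathway itself induces, rose from 10.99 and 9.66 to 27.8 and 31.8 CPM (log2 fold change 1.53, SE 0.13, adjusted p = 0.00753), and by 0.95 (adjusted p = 0.0132) with the same offset. SMURF2, its ubiquitin ligase partner, rose by 0.56 (adjusted p = 0.0232). In siNT-treated cells INHBB, FST and FSTL3 were again lower, by -7.72, -1.91 and -1.58, SMAD7 and BMPR2 were again higher, by 1.88 and 0.85, and SMAD2 and SMAD4 were near 0, at 0.05 and 0.06.

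Among 76 growth factor and hormone genes 10 fell and 7 rose, or 22.4% called, beside 9.61% of all genes tested. Each of the 10 falls recurred in siNT-treated cells. KISS1, which encodes the metastasis-associated peptide kisspeptin, fell from 46.9 and 48.7 to 1.63 and 1.72 CPM (log2 fold change -4.83, SE 0.11, adjusted p = 0.000464; -3.86 in siNT-treated cells). NTN4, a netrin, fell from 30.8 and 29.3 to 2.34 and 2.53 CPM (log2 fold change -3.62, SE 0.12, adjusted p = 0.00132; siNT -3.89). Both had TKO libraries close to each other and far below the parental ones. FGF5 and PGF, a fibroblast growth factor and placental growth factor, fell by -2.79 and -2.81 (adjusted p = 0.00847 and 0.0112). The semaphorins SEMA3A and SEMA3D fell with wide TKO replicates, at 7.20 and 2.98 and 2.04 and 5.02 CPM against 25.1 and 30.1 and 18.9 and 17.1 CPM. VEGFA, the main angiogenic factor, fell from 276 and 291 to 153 and 146 CPM (-0.92, adjusted p = 0.00510), ADM, adrenomedullin, from 48.9 and 45.9 to 20.1 and 14.4 CPM (-1.46, adjusted p = 0.0146), and IGFBP4 from 1552 and 1507 to 741 and 662 CPM (-1.12, adjusted p = 0.00510).

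Of the 7 growth factors that rose, 2 were higher in siNT-treated cells as well, and this share was not tested against that of the falls. AREG and BTC, ligands of the EGF receptor, rose from 12.8 and 14.8 to 44.3 and 40.5 CPM (log2 fold change 1.62, SE 0.11, adjusted p = 0.00510) and from 0.365 and 0.358 to 1.66 and 2.60 CPM (2.54, adjusted p = 0.0220). IGFBP3 rose from 29.3 and 30.2 to 74.4 and 109 CPM (1.62, adjusted p = 0.0197), STC1, stanniocalcin, from 75.97 and 74.6 to 179 and 135 CPM (1.06, adjusted p = 0.0207), and IGFBP7 from 212 and 213 to 340.3 and 477 CPM (0.95, adjusted p = 0.0438; 0.45, adjusted p = 0.146, with an offset for its window on chromosome 4). VEGFB rose by 0.81 (adjusted p = 0.0114) while VEGFA fell, and PDGFC rose by 0.72 (adjusted p = 0.0156; 0.25, adjusted p = 0.130, with an offset for its window). BTC and STC1 were higher in siNT-treated cells, by 0.66 and 0.58, and AREG and IGFBP7 were lower, by -0.84 and -0.82.

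Cytokines gave 2 rises and 4 falls among 47 tested, or 12.8% called, beside 9.61% of all genes tested. IL11, an IL-6-family cytokine that MDA-MB-231 cells make in quantity, fell from 239 and 237 to 28.4 and 17.5 CPM (log2 fold change -3.37, SE 0.25, adjusted p = 0.00856) and by -4.69 in siNT-treated cells. IL18 fell from 20.3 and 17.3 to 8.73 and 8.70 CPM (-1.11, adjusted p = 0.0138), and LIF by -0.39 (adjusted p = 0.0498). IL17D was near 1 CPM in parental cells and fell to 0.408 and 0.386 CPM. MIF, macrophage migration inhibitory factor, rose from 23.4 and 18.9 to 50.1 and 57.9 CPM (1.35, adjusted p = 0.0110), and the chemokine CX3CL1 from 1.72 and 2.61 to 6.73 and 4.91 CPM (1.43, adjusted p = 0.0479). IL6 itself stood at 8.86 and 8.28 CPM in parental cells and 3.74 and 0.807 CPM in TKO cells (-1.91, adjusted p = 0.181), and CXCL8 at 0.990 and 1.02 CPM in parental cells and 4.76 and 0.948 CPM in TKO cells (adjusted p = 0.347), so for both the test was not passed.

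Matrix genes leaned downward, with 7 lower and 4 higher of 66 tested and a median of -0.32. The share called was 16.7%, beside 9.61% of all genes tested. In siNT-treated cells 23 were higher and 18 lower, with a median of 0.10. The 6 fibroblast markers, which include COL1A2, summed to 42.9 and 40.3 CPM in parental cells and 22.1 and 16.3 CPM in TKO cells, with DCN at 0 reads in all 4 libraries, and their part in the matrix values was not tested. Most of the falls were collagens: COL4A5 of basement membrane from 35.3 and 35.4 to 10.4 and 7.27 CPM (-2.002, adjusted p = 0.00931), COL1A2 of collagen I from 11.2 and 10.4 to 3.40 and 4.25 CPM (-1.496, adjusted p = 0.0141), COL8A1 from 265 and 259 to 152 and 144 CPM (-0.83, adjusted p = 0.00588) and COL5A1 from 482 and 499 to 344 and 313 CPM (-0.58, adjusted p = 0.0148). COL11A1 and THBS2, each under 1 CPM in parental cells, fell to 0 reads in 1 or both TKO libraries. COL6A3 was the collagen that rose, from 12.3 and 12.3 to 47.1 and 52.96 CPM (log2 fold change 2.03, SE 0.10, adjusted p = 0.00306), and siNT-treated cells gave the opposite sign, -1.82. TNC, tenascin C, and LAMB1 rose by 0.77 and 0.35 (adjusted p = 0.0395 and 0.0407) and were higher in siNT-treated cells too, by 1.08 and 1.42.

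Secreted proteases and their inhibitors gave 7 rises and 5 falls among 55, or 21.8% called, beside 9.61% of all genes tested. After SERPINA1, the rises included ADAMTS17 from 0.417 and 0.358 to 2.34 and 3.30 CPM (2.85, adjusted p = 0.0139), ADAMTS12 from 90.1 and 87.9 to 169 and 186 CPM (log2 fold change 0.997, SE 0.07, adjusted p = 0.00516) and smaller changes in SERPINH1, MMP14 and ADAMTS15, of which ADAMTS15 stood at 0.23 (adjusted p = 0.151) with an offset for its window. MMP14, the membrane-bound collagenase, went from 290.5 and 289.6 to 481 and 417 CPM (0.63, adjusted p = 0.0176). SERPINE2, protease nexin-1, fell from 16.4 and 17.7 CPM to 0.645 and 1.44 CPM (log2 fold change -4.03, SE 0.37, adjusted p = 0.0106) and was higher by 0.92 in siNT-treated cells. SERPINB1, an inhibitor of neutrophil proteases, fell by -0.52 (adjusted p = 0.0165), and MMP15, MMP25 and ADAMTS8 fell from low levels.

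Transcription factors were called at 35 higher and 35 lower of 439 tested (15.9%, beside 9.61% of all genes tested), but the large changes were falls. SOX4, a SOX factor prominent in breast cancer cells, fell from 12.9 and 11.8 CPM to 0.0679 and 0.105 CPM, which are 2 and 3 reads. FOXA2, a pioneer factor of endodermal tissues, fell from 37.7 and 34.3 to 0.238 and 0.667 CPM (log2 fold change -6.31, SE 0.37, adjusted p = 0.00510). SPDEF, an ETS factor of luminal and secretory cells, fell from 4.32 and 4.86 to 0.204 and 0.456 CPM (log2 fold change -3.78, SE 0.40, adjusted p = 0.0113), and the thyroid hormone receptor THRB from 19.6 and 17.4 to 2.68 and 0.737 CPM (-3.43, adjusted p = 0.0373). All 4 were lower in siNT-treated cells as well, SOX4 by -5.07, FOXA2 by -5.10, SPDEF by -8.25 and THRB by -2.35.

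EPAS1, the hypoxia-inducible factor HIF-2 alpha, fell from 193 and 194 to 37.97 and 26.5 CPM (log2 fold change -2.59, SE 0.19, adjusted p = 0.00850), and the hypoxia-responsive BHLHE40 fell from 98.2 and 98.5 to 36.4 and 34.4 CPM (log2 fold change -1.47, SE 0.07, adjusted p = 0.00297). MITF, which drives lysosomal and melanocyte genes, fell from 73.7 and 70.8 to 21.9 and 20.01 CPM (log2 fold change -1.79, SE 0.08, adjusted p = 0.00297). STAT3 and FOSL2 fell by -0.57 and -0.61 (adjusted p = 0.0218 and 0.00987) and were not called in siNT-treated cells.

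The rises among factors were smaller. PAX8 went from 5.05 and 6.34 to 16.3 and 15.3 CPM (1.47, adjusted p = 0.0119; 0.95, adjusted p = 0.0211, with an offset for its window), KLF13 from 21.8 and 21.2 to 53.1 and 46.9 CPM (1.22, adjusted p = 0.00675) and EHF, an epithelial ETS factor, from 63.1 and 61.2 to 149 and 123 CPM (1.13, adjusted p = 0.00983). GLI2, an effector of hedgehog signaling, went from 7.76 and 9.10 to 15.6 and 20.3 CPM (1.09, adjusted p = 0.0281; 0.66, adjusted p = 0.0663, with an offset for its window), and E2F5 from 9.95 and 8.84 to 23.2 and 17.7 CPM (1.12, adjusted p = 0.0234). The AP-1 family was divided: FOSL1 rose from 283 and 279 to 521 and 458 CPM (0.80, adjusted p = 0.0106) and FOSL2 and JUND fell, JUND by -0.37 (adjusted p = 0.0420). PAX8, KLF13 and FOSL1 were higher in siNT-treated cells, by 1.33, 0.72 and 1.04, and EHF and E2F5 were lower, by -0.42 and -0.45.

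The ZNF genes, a large family of mostly DNA-binding repressors, gave 10 higher and 11 lower genes of 476, or 4.41% called, beside 9.61% of all genes tested. ZNF704 stood out, from 26.99 and 26.4 to 0.306 and 0.0702 CPM (log2 fold change -7.10, SE 0.41, adjusted p = 0.00466), although in siNT-treated cells it did not pass, at 0.28. ZNF300 fell from 3.44 and 3.22 to 0.0340 and 0.140 CPM and ZNF699 from 47.00 and 47.9 to 12.1 and 17.8 CPM (-1.67, adjusted p = 0.0159), both also lower in siNT-treated cells. ZNF827 was the largest rise, from 9.48 and 8.997 to 32.98 and 31.4 CPM (log2 fold change 1.80, SE 0.10, adjusted p = 0.00383).

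The adhesion genes lost cadherins of both kinds. CDH1, E-cadherin, was low in parental cells at 5.37 and 4.24 CPM and fell to 0.272 and 0.386 CPM (log2 fold change -3.85, SE 0.31, adjusted p = 0.00726). CDH2, N-cadherin, fell from 6.88 and 6.39 to 1.63 and 1.47 CPM (log2 fold change -2.09, SE 0.20, adjusted p = 0.00986) and CDH3, P-cadherin, from 1.98 and 1.48 to 0.170 and 0.386 CPM (-2.62, adjusted p = 0.0336). Of these 3 falls, 2 recurred in siNT-treated cells, and CDH2 was not called there. PCDH7, a protocadherin, fell from 5.05 and 4.91 CPM to 0.0679 and 0.0351 CPM, or 2 reads and 1 read. In contrast, 4 clustered protocadherins, PCDHB11, PCDHB13, PCDHB14 and PCDHGB2, rose by between 1.32 and 1.68, and their near-identical neighbours make the split of reads among them uncertain. ITGA6, the laminin receptor subunit, rose from 487 and 469 to 902 and 877 CPM (log2 fold change 0.90, SE 0.06, adjusted p = 0.00493; 0.45, adjusted p = 0.0115, with an offset for its window), ITGAV by 0.64 (adjusted p = 0.00936; 0.18, adjusted p = 0.109, with an offset for its window), and ITGB3 fell from 15.4 and 14.3 to 6.69 and 5.37 CPM (-1.30, adjusted p = 0.0150).

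Of 28 genes of epithelial-mesenchymal transition, 3 rose and 5 fell, or 28.6% called, beside 9.61% of all genes tested. Epithelial and mesenchymal members were found on both sides. Beyond the cadherins, the epithelial genes KRT17, CLDN7 and DSP fell. CLDN7 stood at -0.49 (adjusted p = 0.105) with an offset for its window, and DSP (desmoplakin) went from 296 and 290.2 to 192 and 150.2 CPM (-0.78, adjusted p = 0.0291). The mesenchymal calcium-binding protein S100A4 rose from 237 and 229.9 to 407 and 539 CPM (1.02, adjusted p = 0.0229), and ZEB1, a repressor of epithelial genes, rose by 0.42 (adjusted p = 0.0207). VIM, vimentin, measured 2743 and 2754 CPM in parental cells and 2129 and 2375 CPM in TKO cells (-0.29, adjusted p = 0.0841).

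Antigen presentation genes gave 5 rises and 1 fall among 27, or 22.2% called, beside 9.61% of all genes tested. HLA-B rose from 179 and 183 to 535 and 354 CPM (1.30, adjusted p = 0.0343) and HLA-C by 0.36 (adjusted p = 0.0350), whereas the non-classical HLA-E fell by -0.34 (adjusted p = 0.0332). These genes resemble each other closely, so reads may have been shared among them. On the class II side CIITA, the master regulator, rose from 2.45 and 2.20 to 5.67 and 5.55 CPM (1.27, adjusted p = 0.0221) and CD74, the invariant chain, from 26.9 and 25.8 to 90.6 and 74.7 CPM (log2 fold change 1.65, SE 0.11, adjusted p = 0.00510). HLA-B was higher and CD74 lower in siNT-treated cells, by 0.46 and -0.27. All 7 tested class II genes were positive in untreated cells, at a median of 1.65, with 1 called. In siNT-treated cells all 7 were lower, at a median of -0.97. Over the 27 genes of the list 7 were higher and 14 lower there.

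Interferon-stimulated genes separated the 2 TKO libraries. Of 40 tested, 1 was called (2.5%, beside 9.61% of all genes tested). The list's median was -0.01 in TKO replicate 1 and -0.55 in replicate 2. IFIT2, an antiviral RNA-binding protein, stood at 126 and 121 CPM in parental cells, 93.8 in TKO replicate 1 and 29.4 in replicate 2 (-1.003, adjusted p = 0.342). IFIT1 and ISG15 stood at 81.6 and 37.3 and at 54.7 and 25.9 CPM in TKO replicates 1 and 2, against 95.1 and 92.2 and 66.7 and 66.9 CPM in the parental libraries. In the ATF4 amino acid stress response, 2 of 23 rose and 3 fell, or 21.7% called, beside 9.61% of all genes tested. SLC7A11 and ATF5 rose, and CEBPB, DDIT4 and SLC7A5 fell, by -0.61, -0.53 and -0.34 (adjusted p = 0.0255, 0.0270 and 0.0346).

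Solute carriers gave 16 rises and 25 falls among 228. The glutamate transporters SLC1A1 and SLC1A7 went from 3.13 and 3.37 and 5.73 and 5.27 CPM to at most 2 reads in either TKO library. SLC4A4, a bicarbonate cotransporter, fell from 14.9 and 14.98 to 2.62 and 3.30 CPM (log2 fold change -2.34, SE 0.17, adjusted p = 0.00578) and by -5.97 in siNT-treated cells. SLC22A23, an orphan transporter, fell from 10.6 and 9.41 to 1.19 and 1.26 CPM (log2 fold change -3.02, SE 0.19, adjusted p = 0.00439) but was higher by 3.28 in siNT-treated cells. The 5 largest rises were SLC4A8, SLC37A2, SLC7A11, SLC20A1 and SLC9A7. SLC37A2 measured 49.1 and 51.2 CPM in parental cells and 106 and 133 CPM in TKO cells (1.25, adjusted p = 0.0105; 0.87, adjusted p = 0.0193, with an offset for its window). Of the cancer-testis genes, which tumours re-express from the X chromosome, 10 were tested and 3 fell (30% called). MAGEC1 went from 6.77 and 5.16 CPM to 0.0340 and 0 CPM, and MAGEA12 and MAGEC2, under 1 CPM in parental cells, had 0 reads in both TKO libraries. Their copies are alike and reads may be shared.

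A stricter view took genes as on at 1 CPM or more in both libraries of a group and as off at 3 counts or fewer in both. By that definition 57 genes on in parental cells were off in TKO cells and 1 gene showed the reverse, so complete loss was more common than complete gain. Judged on TKO replicate 2 alone 116 genes were lost, and on replicate 1 alone 83. A loss of signal in a bulk sample does not separate fewer cells with the transcript from less RNA per cell. No read at all in either TKO library was found for 17 of the 57. The 8 with the highest parental levels were DAPK1, ATP10A, PDE1C, a gene without a symbol (ENSG00000272398), CPVL, LINC00261, RASEF and DAAM2. ENSG00000272398, on chromosome 6, went from 30.1 and 30.3 CPM to a single read in each TKO library. LINC00261, a long noncoding RNA next to FOXA2, went from 17.98 and 17.3 to 0 and 0.0351 CPM alongside the fall of FOXA2 itself. Chromosomes 7, 9 and 6 held 7, 6 and 6 of the 57 lost genes, and the remaining losses were spread over 18 other chromosomes. Those 3 chromosomes carried 5.02%, 4.01% and 5.26% of the tested genes above 1 CPM, and a concentration of losses was not tested. The gained gene, ENSG00000222032 on chromosome 2, went from 0.0521 and 0.153 to 1.29 and 1.30 CPM and was lower by -1.66 in siNT-treated cells.

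Many of the 57 were not off in siNT-treated TKO cells. There, 19 were on in all 3 libraries and 13 off in all 3, and 9 repeated the whole pattern of on in parental cells and off in TKO cells. By the test, 34 of the 57 were lower and 11 higher in siNT-treated TKO cells, where the background over all genes tested was 20.7% lower and 16.1% higher.

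A further 73 genes were on in 1 TKO library and off in the other, 46 in replicate 1 alone and 27 in replicate 2 alone, while the parental libraries had 1 such gene. GRAMD1B, a cholesterol transfer protein, reached the highest level, at 0.834 and 0.716 CPM in parental cells, 78.4 CPM in TKO replicate 1 and 0.0702 CPM in replicate 2. SEMA5A, a semaphorin, and SNHG18, a noncoding RNA next to it on chromosome 5, were both expressed in parental cells (43.04 and 40.1 and 20.3 and 17.8 CPM) and in replicate 1 (19.1 and 15.8 CPM), and both had 0 reads in replicate 2. EMB and CCNP were the other 2 of the 5 with the highest level in replicate 1, at 17.1 and 10.3 CPM and 0 reads in replicate 2. In the opposite direction NLRP2, an NLR-family protein, stood at 15.2 and 16.4 CPM in parental cells, 0.0679 in replicate 1 and 20.4 in replicate 2. SLC16A7, the monocarboxylate transporter MCT2, stood at 55.9 and 54.5, 0.0340 and 20.2 CPM in that order, and CA9, the hypoxia-linked carbonic anhydrase, at 4.43 and 4.04, 0 and 6.42 CPM. LDOC1 and NLGN1 followed, with 7.20 and 4.49 CPM in replicate 2.

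Parental cells expressed part of both sets. Of the 46 genes, 23 were on and 6 off in both parental libraries, and of the 27, 14 were on and 2 off. In the siNT-treated TKO cells, of the 46 genes seen in replicate 1 alone, 38 were on and 1 off in all 3 libraries, and of the 27 seen in replicate 2 alone, 10 were on and 3 off. In the test of TKO cells against parental cells, which averages the 2 TKO libraries, edgeR called 0 of the 73 genes, 10 had an unadjusted p under 0.05 and DESeq2 called 2.

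**Figure D5:**
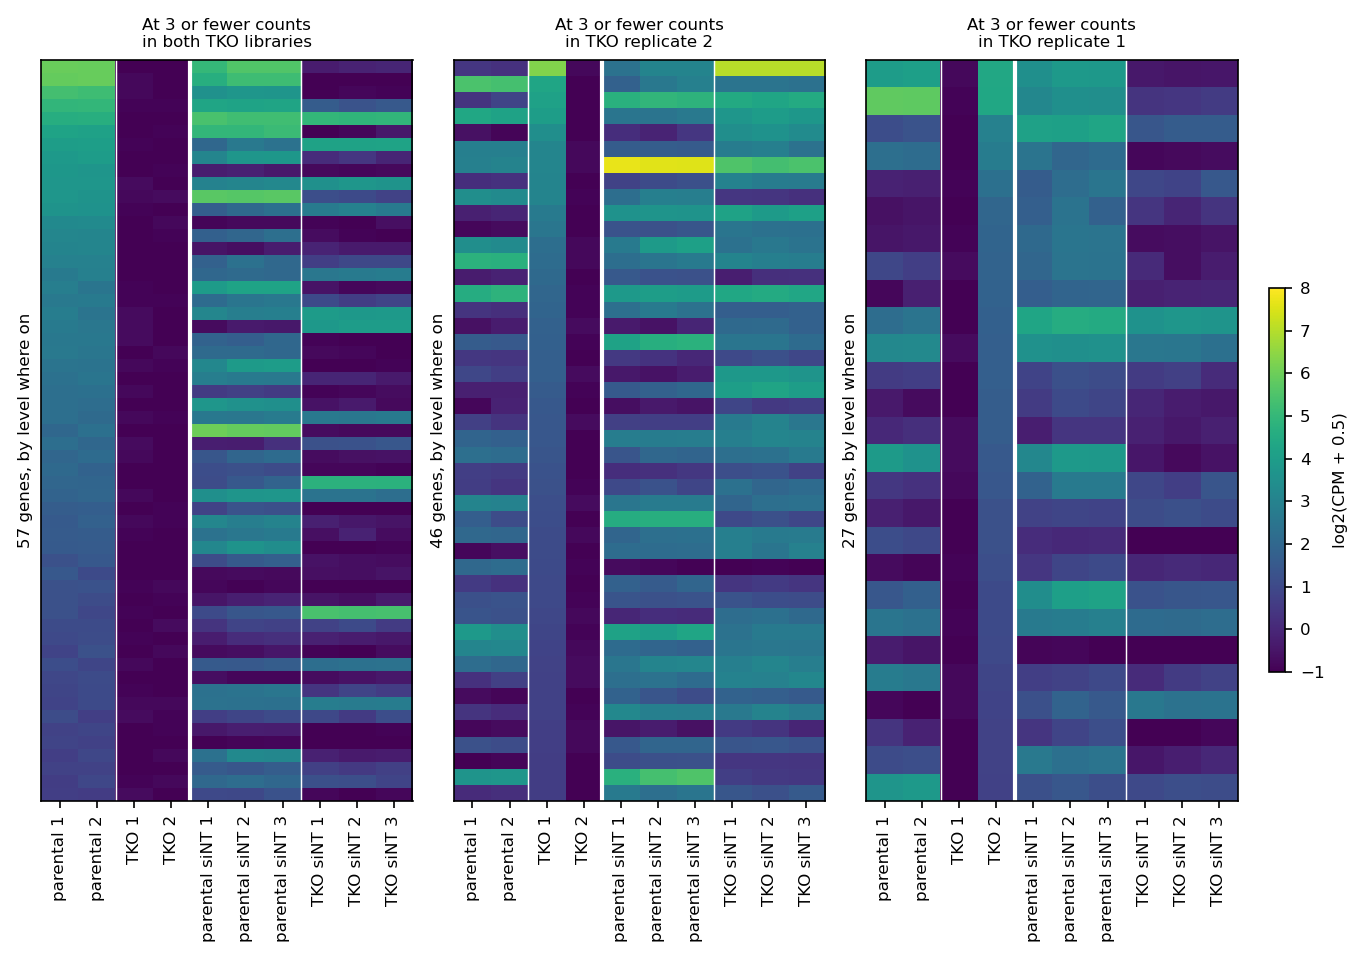
Levels on log2(CPM + 0.5) in each library for the 57 genes lost in both TKO libraries (left), the 46 off in TKO replicate 2 alone (middle) and the 27 off in TKO replicate 1 alone (right), ordered by level where on; -1 is 0 reads. The columns of siNT-treated TKO cells are mostly lit in the middle panel, and in the left panel they are dark for some genes and lit for others.

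Expression was also shifted over long chromosome stretches. The genome was cut into 20 Mb windows, and 153 of them held 15 or more genes over 1 CPM. Of these, 22 had a median log2 difference beyond 0.25 in the same direction in both TKO libraries, 21 upward and 1 downward. The medians of the upward windows lay between 0.26 and 0.65 in the TKO libraries, while no parental library had a window median beyond 0.03 in size. Each parental library is part of the mean it was compared with, which draws its medians toward 0, so the figures are not alike. All 10 windows of chromosome 4 were shifted upward. The others were 5 consecutive windows of chromosome 2 between 100 and 200 Mb, 2 of chromosome 11 between 100 and 140 Mb, 2 of chromosome 18 between 20 and 60 Mb, the second window of chromosome 5 and the first of chromosome X, and the window that fell was the first of chromosome 17. Of the tested genes 10.2% lay in these windows, and of the called genes 29.5%. The windows were marked from the same libraries that gave the calls, so a larger share among called genes follows in part from the definition. Of the 57 lost genes 6 lay in these windows. Of 35 genes named by rule in these windows, 12 were no longer called once the window's median was taken off, while INHBB, SMAD7, ATP5ME, SLC7A11, AREG and SREBF1 among others still were. In siNT-treated cells 7 of the 21 upward windows (33.3%) were above the limit in all 3 TKO libraries, namely those of chromosomes 2, 5 and X, against 7 of 131 other windows (5.34%), and those of chromosomes 4, 11 and 18 were not. Some stretches outside the 22 moved mainly in 1 TKO library. Chromosome 2 from base 1 to 80000000 had medians between -0.62 and -0.50 in replicate 1, and between -0.01 and 0.05 in replicate 2. Chromosome 6 from base 80000001 to 160000000 lay between -0.50 and -0.28 in replicate 2, and between 0.02 and 0.23 in replicate 1. On chromosome 8 from base 80000001 to 120000000 the medians were 0.44 and 0.52 in replicate 1 and 0.11 and 0.16 in replicate 2. Whether gene copy number differed was not tested.

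The siNT-treated libraries offered the same genotypes in separate libraries. Of 1084 genes higher in untreated TKO cells and present in both tables, 389 (35.9%) were again higher and 165 (15.2%) lower, where the shares over all 19074 common genes were 18.1% and 22.6%. Of 826 lower genes, 426 (51.6%) were again lower and 105 (12.7%) higher. Among genes that moved by at least 1 log2 unit in untreated cells, 101 of 205 rises (49.3%) and 242 of 406 falls (59.6%) recurred, and 42 (20.5%) and 67 (16.5%) were called in the opposite direction. Falls thus recurred in a larger share than rises, though this difference in shares was not tested.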

How the data were processed

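Stranded mRNA libraries were sequenced on Illumina instruments. The deposited files hold raw read counts per gene, made by the authors with STAR on GRCh38 and featureCounts with strand taken into account, and the 4 libraries compared here used single reads and Ensembl release 102. CPM values were computed here from those counts with edgeR's TMM factors. The 3 siNT-treated parental libraries were counted against release 104, and 60620 of 60675 genes in release 102 are in both. Gene symbols came from a name table and matched 67.7% of gene identifiers.

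Genes whose counts over the 4 libraries added up to more than 5 entered edgeR 4.0.16 under R 4.3.3 (robust quasi-likelihood, TMM, Benjamini-Hochberg, adjusted p of at most 0.05), without a replicate term. DESeq2 1.42.0 was an alternative. The biological coefficient of variation was 15.1%. In a test on simulated data for this comparison over 19361 genes, 68% of 200 genes changed 2-fold were recovered, with 2 false calls. The simulation gave all libraries the same dispersion, whereas the measured TKO libraries differed far more than the parental ones. It therefore checks the procedure and does not give the error rate of the calls made here. A difference between the untreated and siNT-treated contrasts was tested as an interaction in edgeR over both experiments. Genes named were TXNIP and MYC, the 15 largest called changes each way that had a symbol, averaged 1 CPM or more and kept the groups apart, up to 6 called genes each way per list, the 8 lost, 8 gained and 5 split genes each way with the highest CPM, and any other list member whose result is given. The groups did not overlap for 57.7% of tested genes. The members and lists were chosen with earlier results of these data known. List medians stayed the same to 2 decimals when genes with 0 reads in a group were set at their floor, except for the cancer-testis list, whose median is not given. The study calls the replicates biological but the labels name no separate cultures, so the p-values measure the spread between these samples, which may be technical. Promoters were RefSeq windows on GRCh38.p14, matched by symbol for 84.7% of 13000 tested protein-coding genes. Intervals and floors cover counting error only. Alternatives were other tools, scalings, filters, offsets for 20 Mb windows and gene length, the replicate number as a block and leaving out each library. The 6 libraries with Myc knockdown were not used here, and some genes of the lists are counted but not reported here by name.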

Additional observations from a re-analysis of the deposited data

Results flagged for a closer look

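For 86 of 171 named genes the log2 fold change in untreated cells differed from that in siNT-treated cells by edgeR's interaction test. Over all 25112 genes in that test the share was 14.1%. The named genes were largely chosen for large called changes in untreated cells, and those changes enter the test. A larger share among named genes thus follows in part from the choice, and no conclusion is drawn from it. The siNT-treated libraries differ in sequencing and, on the parental side, in annotation release, so siRNA exposure, sequencing and counting cannot be told apart. Those among the 30 largest changes and those called in opposite directions are given as the untreated minus the siNT-treated log2 fold change. Values that involve 0 reads rest on the small count edgeR adds and are not bounds.

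Larger in untreated cells were RNF128 (5.59), RADX (2.97), G0S2 (3.23), SERPINA1 (2.24), ST8SIA5 (2.53), APCDD1L-DT (1.16), CACNA2D1 (3.35), LINC01411 (1.39) and AKR1C3 (1.49). Of these, RNF128 and CACNA2D1 were called lower in siNT-treated TKO cells, and G0S2 and ST8SIA5 were not called there. Among the largest falls the differences were -7.28 for DAPK1, -12.28 for CPVL, -7.75 for DAAM2, -11.76 for PCSK6, -9.45 for DZIP1, -11.48 for CYRIA, -6.43 for TRIML2, -11.50 for RASEF, -4.82 for OLR1 and -13.34 for F13A1. DAPK1, CPVL, DAAM2, DZIP1, TRIML2 and OLR1 were called lower in both experiments, PCSK6 was not called in siNT-treated cells, and CYRIA, RASEF and F13A1 were called higher there. F13A1, a subunit of coagulation factor XIII, stood at 3.39 and 3.32 CPM in untreated parental cells, 0 reads in both untreated TKO libraries, 2.34 ± 0.736 CPM (SD, n = 3) in siNT-treated parental cells and 26.8 ± 0.120 CPM (SD, n = 3) in siNT-treated TKO cells.

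With the 5 above, 23 genes were called in opposite directions. Higher in untreated and lower in siNT-treated TKO cells were HADH (0.80), CD74 (1.92), AREG (2.47), IGFBP7 (1.77), COL6A3 (3.84), LAMA4 (3.08), SERPINH1 (1.46), MMP14 (1.03), EHF (1.54) and E2F5 (1.57). Lower in untreated and higher in siNT-treated TKO cells were MNT (-0.93), BMP8B (-1.68), INSIG1 (-1.70), THBS2 (-6.99), SERPINE2 (-4.95), MMP15 (-1.33), DLX3 (-5.65) and SLC22A23 (-6.30). SERPINE2 stood at 16.4 and 17.7 CPM in untreated parental cells, 0.645 and 1.44 CPM in untreated TKO cells, 19.3 ± 1.05 CPM in siNT-treated parental cells and 36.6 ± 1.12 CPM in siNT-treated TKO cells. The parental levels of SERPINE2 were close in the 2 experiments, and the TKO cells levels were on opposite sides of them.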

How the results depend on the processing

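The 1085 higher and 834 lower genes became 1258 and 983 with DESeq2, 1064 and 846 with its size factors, 1067 and 681 with more than 5 counts in every library, 1493 and 1122 with no filter, 860 and 938 with window offsets and 1028 and 837 with length offsets. Leaving out 1 library moved the total of 1919 to between 0 and 7002, the higher genes to between 0 and 3453 and the lower to between 0 and 3549, with 0 when either parental library was left out. The lone library is then assumed to vary like the other group. Over the gene lists the 272 calls ranged from 0 to 853, the rises in oxidative phosphorylation from 0 to 55 and those in NRF2 genes from 0 to 20. With the replicate number as a block the total was 904, with 523 higher and 381 lower, 154 calls in the lists and 15 rises in oxidative phosphorylation. Same-numbered libraries did not deviate together (correlation 0.02), so the numbers were not read as pairs. Genes lost in both TKO libraries numbered 17 with 0 counts where off, 38 at 2 CPM where on, and 83 to 116 on a single TKO library. MYC turned to -0.14 without TKO replicate 1 and rose to 0.22 without TKO replicate 2, and HADH reversed to -0.032 with window offsets, which subtract the median of the genes around it. Of 171 named genes 11 lost their call with DESeq2, 10 with no filter, 21 with window offsets, 4 with length offsets, 48 under the block and 169 without either parental library. The length offsets were chosen after seeing the data. Windows of 10 Mb gave 38 shifted windows with 10.4% of tested genes. A promoter count over genes with a log2 fold change of at least 1 was void, since under 80% had a promoter. Depth limits what can be said of genes near 3 counts.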

Other observations

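Some genes left the parental level in opposite directions in the 2 TKO libraries, by more than 1 log2 unit each on log2(CPM + 0.5), which held for 20 genes above 1 CPM. The ones given here were chosen after their values were seen. CSF2, the cytokine GM-CSF, stood at 0.834 and 0.971 CPM in parental cells, 3.02 CPM in TKO replicate 1 and 0.140 CPM in replicate 2. SAA2, an acute-phase protein, stood at 3.91 and 3.48, 9.37 and 0.562 CPM in that order, and TRIM29 at 2.81 and 2.61, 9.44 and 1.09 CPM. In the other direction PTN, the growth factor pleiotrophin, stood at 5.68 and 5.27 CPM in parental cells, 1.26 CPM in replicate 1 and 14.9 CPM in replicate 2, and CAMK4, a calmodulin-dependent kinase, at 6.15 and 5.98, 1.73 and 19.2 CPM.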
